A study of Mus musculus with 8 samples.

Results

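The members of the prostaglandin pathway and its neighbours were followed in RNA-seq data of mouse ventral hippocampus: the phospholipases A2 *Pla2g3* and *Pla2g4a*, the cyclooxygenases *Ptgs1* and *Ptgs2*, the prostaglandin synthases *Ptgds*, *Hpgds* and *Ptges*, the degrading enzyme *Hpgd*, and the annexin *Anxa1*. They were chosen by name as 9 of the 50686 genes in the deposited count table, and all 9 were found by their Ensembl identifiers. The samples came from male C57B6/J (C57BL/6J) mice of 8 weeks that carried no transgene named in the labels, with 1 mouse per library. Vehicle was injected in 4 mice (replicates 1 to 4) and 3 mg/kg corticosterone, the main glucocorticoid (GC) of rodents, in 4 mice (replicates 5 to 8), and the tissue was taken 3 h later. The comparison of the groups asks which transcripts differ shortly after a GC injection.

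Prostaglandins are short-lived lipid signals made from arachidonic acid. Phospholipases A2 free arachidonic acid from membrane lipids, the cyclooxygenases turn it into a common precursor, and terminal synthases turn the precursor into prostaglandin D, E, F, prostacyclin or thromboxane, which act on their own receptors until dehydrogenases and reductases remove them. GCs are known to dampen this pathway in inflamed tissue, and annexin A1, once called lipocortin, is a textbook GC-induced protein. In brain, *Ptgs2* is known as a neuronal, activity-dependent enzyme, *Ptgds* as a product of the leptomeninges, choroid plexus and oligodendrocytes, and *Hpgds* as a microglial enzyme.

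Promoter windows of 250 bases before to 50 bases after the gene start were found for 8 of the 9 genes, all but *Pla2g3*, in the RefSeq table for GRCm38.p6. The 250 bases upstream are shown for *Anxa1*, the gene with the largest estimated change of the 9, and for *Ptgs1* and *Ptgs2*, the cyclooxygenase pair whose levels stayed close in both groups. Capitals mark the motifs searched, written 5′ to 3′ on the strand of the gene.

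Anxa1, chr19:20390672-20390921, minus strand: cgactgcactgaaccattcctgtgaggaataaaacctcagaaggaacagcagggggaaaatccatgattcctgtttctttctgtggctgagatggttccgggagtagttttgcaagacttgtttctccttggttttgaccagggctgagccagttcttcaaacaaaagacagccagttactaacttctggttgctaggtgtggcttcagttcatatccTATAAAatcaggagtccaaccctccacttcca

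Ptgs1, chr2:36230176-36230425, plus strand: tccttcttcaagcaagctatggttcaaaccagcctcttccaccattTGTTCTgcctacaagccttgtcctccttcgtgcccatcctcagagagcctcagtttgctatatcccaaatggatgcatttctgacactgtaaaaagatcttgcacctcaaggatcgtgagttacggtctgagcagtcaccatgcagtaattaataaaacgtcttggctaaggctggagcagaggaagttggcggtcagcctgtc

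Ptgs2, chr1:150099781-150100030, plus strand: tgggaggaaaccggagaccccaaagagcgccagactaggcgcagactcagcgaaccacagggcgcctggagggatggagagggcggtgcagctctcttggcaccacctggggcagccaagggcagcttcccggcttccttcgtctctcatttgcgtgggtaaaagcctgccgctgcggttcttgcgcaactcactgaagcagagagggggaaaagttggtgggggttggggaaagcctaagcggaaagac

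In *Anxa1* the capitals are a TATA box (TATAAA, searched on the gene strand only) whose first base lies at position -32 from the start, a motif held by 8.28% of the 32544 windows of this length. In *Ptgs1* they are the half-site of the glucocorticoid response element (GRE), AGAACA, here on the opposite strand with its first printed base at -204. This half-site, searched on both strands, was in 18.9% of all windows, and also in that of *Ptges* and in 1 of the 2 windows of *Pla2g4a*. The full palindromic GRE, in which AGAACA and TGTTCT are separated by 3 bases and which contains the half-site, was in 3 of the 32544 windows and in none of the windows of the 8 genes. The upstream run of *Ptgs2* has no capitals, as none of the motifs occurs in it. Its window has CGTCA, the half-site of the cAMP response element, at position 14 after the annotated start. CGTCA was in 20.9% of windows on either strand, and here it overlaps an E-box, CACGTG (7.17% of windows), at position 17. Positions count from the start annotated in RefSeq, and no other start of transcription was examined. The complete cAMP response element TGACGTCA was in 1.80% of windows and in none of these. The *Ptgs2* window had 16 CG dinucleotides against 6 in that of *Ptgs1*, where the median over all windows was 7. These matches describe letters and say nothing of binding.

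Between 17492159 and 19931987 reads per library were counted on genes. Normalized counts are counts scaled with the TMM method of edgeR to the mean library. *Fkbp5*, a gene induced by GCs, was between 1709 and 2373 normalized counts after vehicle and between 3177 and 3511 after corticosterone, which fits the labels. Over all 16018 genes tested with the quasi-likelihood test of edgeR, 0.00624% passed an adjusted p value under 0.05 (Benjamini-Hochberg). An unadjusted p value under 0.05 was reached by 9.03% of genes, 4.51% in the higher and 4.52% in the lower direction. Estimates were above 0 in 50.7% of genes tested. In 3.66% of genes the 4 values of one group did not overlap the 4 of the other. Corticosterone replicate 5 stood apart in its share of reads on genes, 86.3%, where the rest of its group had 84.6% to 84.8% and the vehicle group 85.1% to 85.8%. Without this library, 10.2% of genes passed the adjusted threshold.

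None of the 9 genes passed the adjusted threshold in edgeR. *Pla2g3* and *Anxa1* were higher after corticosterone at an unadjusted p value under 0.05, with no overlap between the groups. Among all genes, 1.99% were higher and 1.68% lower without overlap. The other 7 genes overlapped. With DESeq2, where 0.374% of 16826 genes passed, 1 of the 9 genes did, *Pla2g3*, and limma-voom called 0. Over the 9 genes the median log2 fold change was 0.07, against 0.0036 over all genes tested, with 6 estimates above and 3 below 0. All 9 genes passed the filter on low counts. *Anxa1* met its bound in 7 of 8 libraries, 4 of them corticosterone, and the others in all 8. In bulk tissue, fewer cells of a type and less RNA per cell cannot be told apart.

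**Figure D1:**
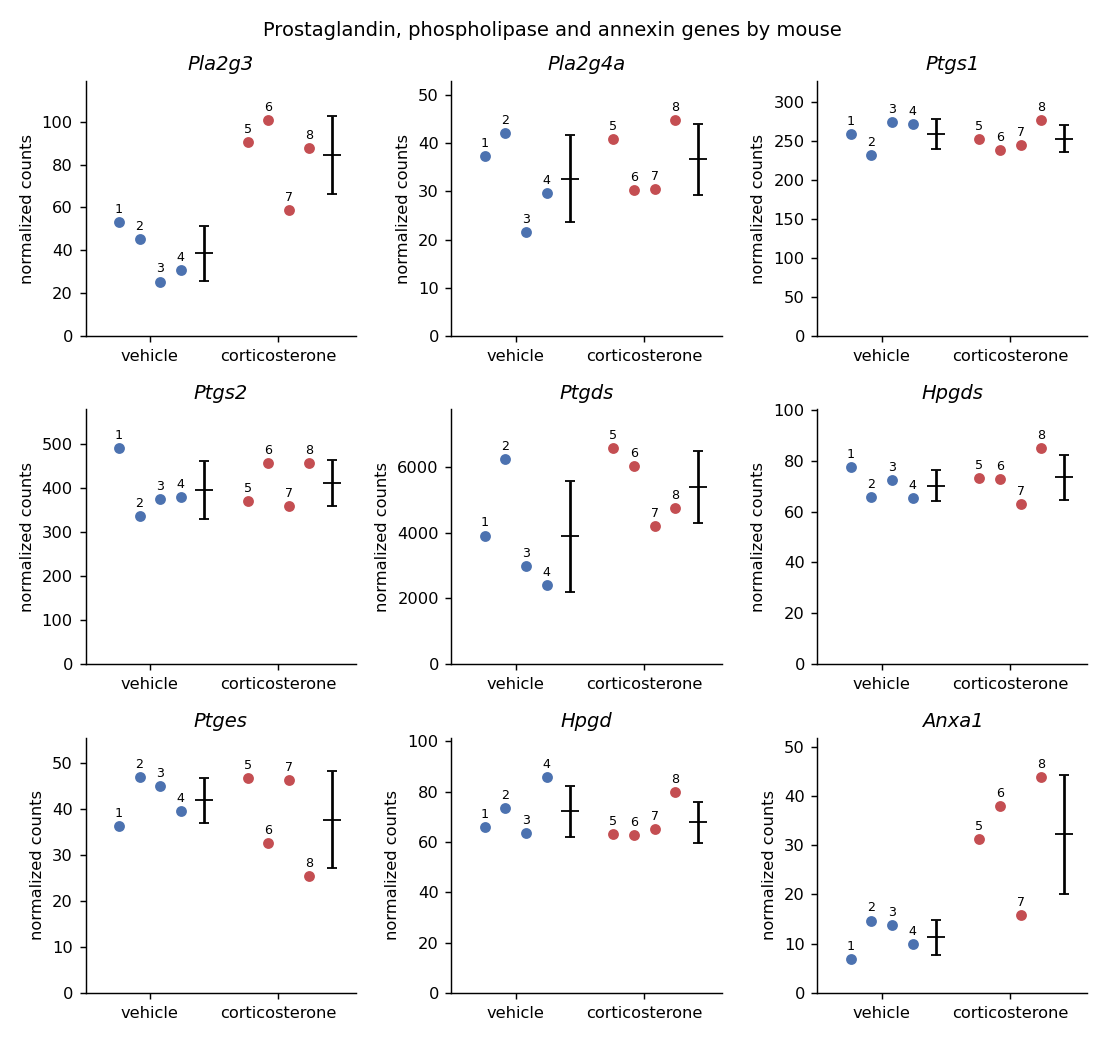
Normalized counts (vertical axes, from 0) of the 9 genes in each mouse, with vehicle replicates 1 to 4 in blue and corticosterone replicates 5 to 8 in red. Bars give the mean and SD of 4 mice; only in *Pla2g3* and *Anxa1* do all red points lie above all blue points.

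The levels of the genes per exon length differed widely. *Ptgds* had 123 ± 53.2 RPKM (reads per kilobase of exon, scaled to library size; SD, n = 4) after vehicle and 170 ± 34.7 after corticosterone, above 98.6% of the genes tested. *Ptgs2* followed with 4.52 ± 0.75 RPKM after vehicle, then *Ptgs1* with 3.48 ± 0.26 and *Hpgd* with 2.24 ± 0.31. The ranges of these 4 genes over the vehicle mice did not touch. *Hpgds* (0.570 RPKM), *Ptges* (0.557 RPKM), *Pla2g3* (0.428 RPKM), *Pla2g4a* (0.267 RPKM) and *Anxa1* (0.202 RPKM) came last after vehicle, and each overlapped the next in this order. After corticosterone the first 4 places were the same. *Pla2g3* then came next with 0.940 RPKM, followed by *Hpgds* (0.597 RPKM), *Anxa1* (0.577 RPKM), *Ptges* (0.501 RPKM) and *Pla2g4a* (0.299 RPKM), again with overlapping neighbours. These levels divide by all annotated exon bases of a gene, so a gene with long, rarely used exons is placed too low.

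**Figure D2:**
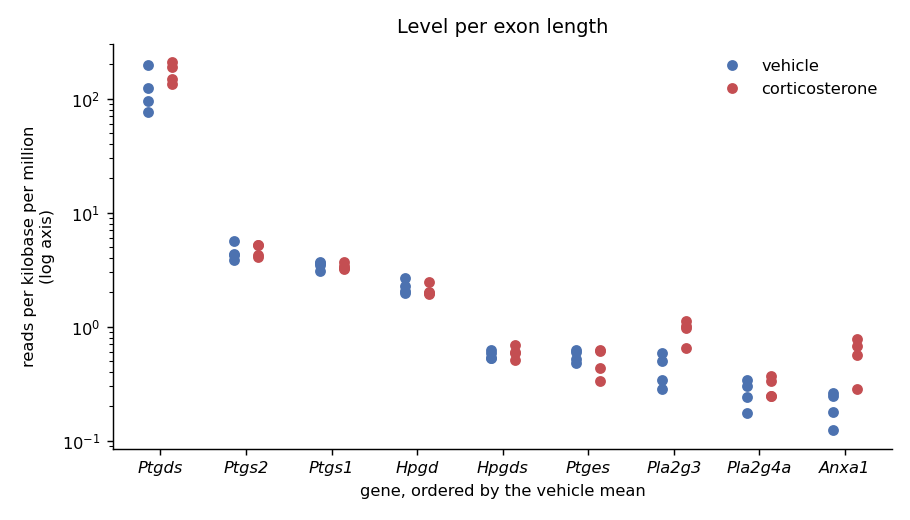
RPKM on a log axis for each of the 9 genes, ordered by the vehicle mean, with 4 vehicle mice in blue and 4 corticosterone mice in red. *Ptgds* lies between 76.5 and 207 and every other gene below 5.60.

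The spread between mice also differed. *Ptgs1* varied least, with a coefficient of variation of 7.58% after vehicle and 6.72% after corticosterone. *Ptgds* varied most after vehicle, with 43.3%, and *Anxa1* most after corticosterone, with 37.6%. Counts of *Anxa1* were low, between 7 and 45 reads per library, so counting error is part of its spread.

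Arachidonic acid release was represented by a secreted and a cytosolic phospholipase A2. *Pla2g3* (ENSMUSG00000034579) codes for the secreted group III enzyme and lies on chromosome 11 of GRCm38 from 3488284 to 3499350. After vehicle it had 53.0, 45.1, 25.4 and 30.6 normalized counts in replicates 1 to 4, and after corticosterone 90.65, 101, 58.9 and 87.7 in replicates 5 to 8. The lowest corticosterone mouse, replicate 7, was just above the highest vehicle mouse, replicate 1. The mean was 38.5 ± 12.7 after vehicle and 84.5 ± 18.0 after corticosterone (SD, n = 4 mice each), 2.19 times higher, and the adjusted threshold was not passed. The log2 fold change was 1.13 ± 0.24 (SE, 95% interval 0.61 to 1.65, unadjusted p = 0.000436 and adjusted p = 0.231 in edgeR), and the exact permutation test gave a two-sided p of 0.0286, the smallest that 4 mice against 4 allow. DESeq2 gave an adjusted p value of 0.0113. With 1 mouse left out in turn, edgeR gave adjusted p values of 0.0237 without corticosterone replicate 5 and 0.0739 to 0.618 without each of the other 7. The unadjusted p value without replicate 5 was 0.00078, larger than with all mice. The study named *Pla2g3* a GC target partly on these mice, so its values here are not independent evidence. The choroid plexus markers described with *Ptgds* summed to 527 to 1448 normalized counts after vehicle and 746 to 1524 after corticosterone. Replicates 1 and 2 after vehicle and 5 and 6 after corticosterone were the highest of their groups in both. Of all lists examined, this one had the highest Pearson's r with *Pla2g3* (0.91, group means removed, 8 libraries). For the oligodendrocyte markers, where vehicle replicates 1 and 2 were also highest, r was 0.71, and for the dentate granule and pyramidal neuron markers -0.10. The part of any of these cells in *Pla2g3* was not tested. Of its 4696 exon bases, 401 overlap *Inpp5j* on the opposite strand, a far more abundant gene whose log2 fold change was 0.03 (standard error 0.089), and the strand setting of the counting is not given in the sources used here. Reads that HTSeq-count left out as ambiguous between genes made up 1.4% to 1.67% of a library after vehicle and 1.25% to 1.48% after corticosterone. Reads without a unique alignment made up 0.0699% to 0.111% and 0.0420% to 0.0536%, without overlap. The part of these reads in the counts was not tested.

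*Pla2g4a* (ENSMUSG00000056220, chromosome 1 from 149829618 to 149961290) codes for the calcium-dependent cytosolic enzyme that prefers arachidonic acid. It had 37.3, 42.1, 21.5 and 29.6 normalized counts after vehicle and 40.9, 30.4, 30.5 and 44.8 after corticosterone. The groups overlapped throughout, and the log2 fold change of 0.17 had a 95% interval from -0.37 to 0.71 (adjusted p = 0.796 in edgeR).

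The cyclooxygenases make the precursor of all prostaglandins. *Ptgs1* (ENSMUSG00000047250, chromosome 2 from 36230426 to 36252272), the constitutive form, had 258, 231, 274 and 271 normalized counts after vehicle and 252, 238, 245 and 277 after corticosterone. These values cover the same range in both groups. Its log2 fold change of -0.03 had the narrowest 95% interval of the 9 genes, from -0.25 to 0.18 (adjusted p = 0.915 in edgeR). An uncharacterised gene on the opposite strand shares 148 of its 3884 exon bases.

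*Ptgs2* (ENSMUSG00000032487, chromosome 1 from 150100031 to 150108227), the inducible form, had 491, 338, 376 and 380 normalized counts after vehicle and 372, 457, 360 and 457 after corticosterone. The highest mouse of all was vehicle replicate 1, and the groups overlapped. The log2 fold change was 0.06 (95% interval -0.22 to 0.33, adjusted p = 0.879 in edgeR). Its sign turned without vehicle replicate 2 (-0.014), without corticosterone replicate 8 (-0.0024) and with 1 surrogate variable (-0.039). The 10 neuronal immediate early genes that were examined beside it, such as *Egr1*, all had lower estimates. Of them, 1 was at an unadjusted p value under 0.05, where 4.52% of all genes were lower at that level. Their summed counts ranged from 3696 to 5584 after vehicle and from 2982 to 4859 after corticosterone.

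Both *Ptgds* and *Hpgds* make prostaglandin D2 by unrelated proteins. *Ptgds* (ENSMUSG00000015090, chromosome 2 from 25466709 to 25470046) codes for the lipocalin-type synthase, which is secreted into cerebrospinal fluid. After vehicle it had 3910, 6233, 2981 and 2417 normalized counts, and after corticosterone 6552, 6028, 4201 and 4732. Vehicle replicate 2 lay among the corticosterone mice, while the other vehicle mice lay below all of them. The mean was 3885 ± 1682 after vehicle and 5378 ± 1096 after corticosterone (SD, n = 4), a log2 fold change of 0.47 (95% interval -0.04 to 0.98, unadjusted p = 0.0684 and adjusted p = 0.545 in edgeR, exact permutation p = 0.143). Leaving out vehicle replicate 2 gave 0.79 (edgeR, unadjusted p = 0.000799, adjusted p = 0.472), and leaving out vehicle replicate 4 gave 0.29.

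Markers of cells known for *Ptgds* were set beside it. The 10 choroid plexus markers, led by *Ttr*, summed to 1448, 911, 584 and 527 normalized counts after vehicle and to 1524, 1328, 746 and 1028 after corticosterone. Among the corticosterone mice their order was that of *Ptgds*, and among the vehicle mice replicates 1 and 2 were highest in both. Over the 8 libraries after removal of the group means, Pearson's r of *Ptgds* with the log2 sum of these markers was 0.70. It was 0.58 with the leptomeningeal fibroblast, 0.52 with the oligodendrocyte and 0.71 with the perivascular macrophage markers. With the prostanoid receptor genes it was 0.82, so the match was not particular to choroid plexus. Of the 8 choroid plexus markers tested, 7 had higher estimates and 2 an unadjusted p value under 0.05. The 2 include *Otx2*, with 13.8, 17.6, 5.87 and 4.94 normalized counts after vehicle and 34.1, 21.7, 8.41 and 22.4 after corticosterone. It lay near the bound of the filter, mainly after vehicle, and nothing is read from its p value. *Folr1* and *Slc4a5* were at 0 in at least 1 vehicle library. The 12 leptomeningeal fibroblast markers, led by *Dcn*, summed to 2282 to 4102 after vehicle and to 3323 to 5770 after corticosterone, with higher estimates in 12 of 12 and 5 at an unadjusted p value under 0.05. None of them was at 0 in any library. The 5 include *Slc47a1*, with 5.89, 18.6, 14.7 and 1.97 normalized counts after vehicle and 18.5, 54.2, 13.7 and 27.3 after corticosterone. Its vehicle replicates 1 and 4 lay under the bound of the filter and all corticosterone libraries met it. It was thus tested only through the group where it was high, and its p value supports nothing. The 10 oligodendrocyte markers summed to 115190, 84917, 72312 and 65275 after vehicle and to 78801, 64010, 66001 and 70325 after corticosterone. Vehicle replicate 1 was far above the rest, and the low ends of the groups lay close together. Estimates were lower in 10 of 10, with 4 at an unadjusted p value under 0.05. Over all genes, 50.7% had higher estimates, and 4.51% were higher and 4.52% lower at that p value. Genes of a marker list are not independent, so these counts are a description. The part of these cells in the level of *Ptgds* was not tested.

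**Figure D3:**
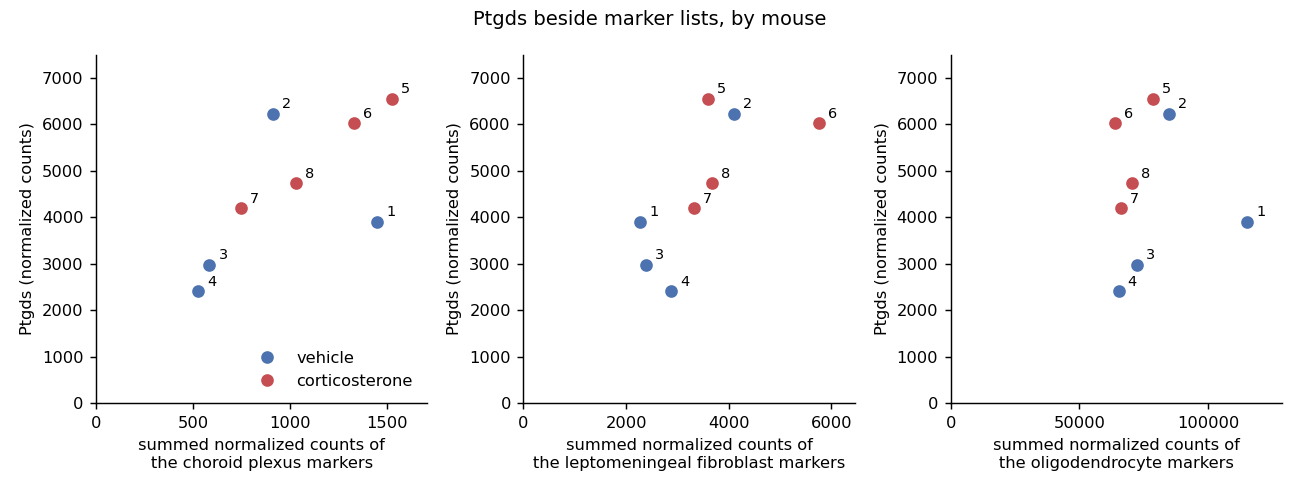
Normalized counts of *Ptgds* (vertical axis) against the summed normalized counts of 3 marker lists (horizontal axes), 1 point per mouse with its replicate number, vehicle in blue and corticosterone in red. Corticosterone replicates 5 and 6 and vehicle replicate 2 are highest in *Ptgds*, and vehicle replicate 1 is highest in the oligodendrocyte sum, at 115190.

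*Hpgds* (ENSMUSG00000029919, chromosome 6 from 65117293 to 65144908) codes for the haematopoietic prostaglandin D synthase. It had 77.6, 65.6, 72.4 and 65.2 normalized counts after vehicle and 73.1, 72.7, 63.1 and 84.8 after corticosterone. The values were interleaved, and the log2 fold change of 0.07 had a 95% interval from -0.26 to 0.39 (adjusted p = 0.878 in edgeR). The 10 microglia markers summed to 8218 to 8491 after vehicle and to 6508 to 7829 after corticosterone without overlap. Their estimates were lower in 9 of 10, and 5 of these had an unadjusted p value under 0.05, against 4.52% of all genes. The estimate of *Hpgds* did not follow that direction, and the difference between them was not tested.

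*Ptges* (ENSMUSG00000050737, chromosome 2 from 30889471 to 30929863) codes for the microsomal, inducible prostaglandin E synthase. It had 36.3, 47.0, 45.0 and 39.5 normalized counts after vehicle and 46.8, 32.5, 46.2 and 25.3 after corticosterone. Corticosterone replicates 6 and 8 were the lowest of the 8 mice, and replicates 5 and 7 lay among the highest. The log2 fold change was -0.15 (95% interval -0.64 to 0.34, adjusted p = 0.801 in edgeR).

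*Hpgd* (ENSMUSG00000031613, chromosome 8 from 56294585 to 56321043) codes for the dehydrogenase that starts the breakdown of prostaglandins. It had 65.8, 73.5, 63.6 and 85.9 normalized counts after vehicle and 63.4, 62.9, 65.2 and 79.9 after corticosterone. Replicate 4 was the highest after vehicle and replicate 8 after corticosterone, and the groups overlapped. The log2 fold change was -0.09 (95% interval -0.44 to 0.26, adjusted p = 0.842 in edgeR).

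*Anxa1* (ENSMUSG00000024659, chromosome 19 from 20373428 to 20390944) codes for annexin A1, a phospholipid-binding protein described as an inhibitor of phospholipase A2 and a ligand of formyl peptide receptors. It had 6.87, 14.7, 13.7 and 9.87 normalized counts after vehicle and 31.2, 38.0, 15.8 and 43.8 after corticosterone. As in *Pla2g3*, replicate 7 was the lowest corticosterone mouse, here 15 reads against 15 in vehicle replicate 2 before scaling. The mean was 11.3 ± 3.60 after vehicle and 32.2 ± 12.1 after corticosterone (SD, n = 4), 2.85 times higher. The log2 fold change was 1.5 ± 0.35 (SE, 95% interval 0.75 to 2.26, unadjusted p = 0.000892 and adjusted p = 0.25 in edgeR), with an exact permutation p of 0.0286. DESeq2 gave an adjusted p value of 0.0566. In edgeR it was 0.0293 without corticosterone replicate 5, where the unadjusted p value was 0.00134, again larger than with all mice, and 0.277 to 0.645 without each of the other 7. The leptomeningeal fibroblast markers, given above, also had higher estimates. The 8 perivascular macrophage markers summed to 337 to 444 after vehicle and 288 to 431 after corticosterone. *Stab1*, which led this sum, had a lower estimate (-0.15), while 4 of the 5 tested had higher ones. Of these 4, 1 had an unadjusted p value under 0.05, where 4.51% of all genes were higher at that level. Their part in the level of *Anxa1* was not tested. The formyl peptide receptor genes *Fpr3* and *Fpr-rs4* had 0 reads in all libraries, and *Fpr1* and *Fpr2* had 4 and 8 reads over the 8 libraries.

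**Figure D4:**
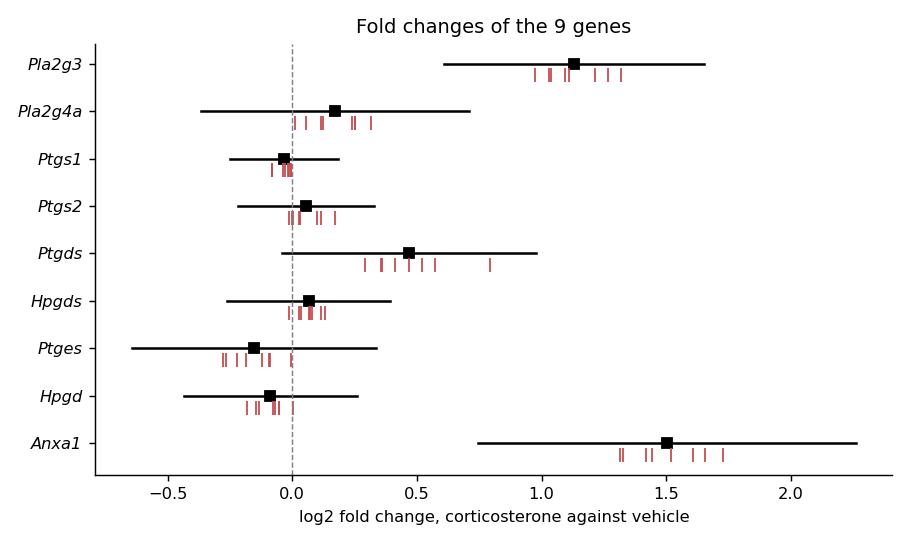
Log2 fold changes of corticosterone against vehicle for the 9 genes (black squares) with 95% intervals (black lines) from edgeR, and the estimates with each of the 8 mice left out in turn (red ticks). Only the intervals of *Pla2g3* and *Anxa1* lie above 0, and their ticks run from 0.97 to 1.32 and from 1.31 to 1.73.

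A further 86 genes of the pathway, in 5 lists, were examined in the same fit, and 54 of them passed the filter. None passed the adjusted threshold with edgeR or limma-voom and 1, *Ptgfrn*, with DESeq2. An unadjusted p value under 0.05 was reached by 7 (13% of those tested, against 9.03% of all genes), 5 higher and 2 lower, and the median log2 fold change was 0.0051. These counts include *Ptgis*, which passed the filter only through the corticosterone libraries, and nothing is read from the share.

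Among the 16 genes of prostanoid synthesis and breakdown, 15 were tested, 6 with higher and 9 with lower estimates. *Fam213b*, a prostaglandin F synthase and the most abundant per length, had 940 ± 87.5 normalized counts after vehicle and 944 ± 192 after corticosterone. *Ptgis*, the prostacyclin synthase, was the only one of the list at an unadjusted p value under 0.05. It met the bound of the filter in 1 vehicle and 4 corticosterone libraries, so it was tested only through the group where it was high, and its p value supports nothing. It had 10.8, 7.84, 8.80 and 0.987 normalized counts after vehicle and 19.5, 28.2, 10.5 and 26.3 after corticosterone, and the log2 fold change was 1.55 ± 0.46 (SE, adjusted p = 0.423 in edgeR). Corticosterone replicate 7 was again the lowest of its group and overlapped vehicle replicate 1. *Cbr3*, a carbonyl reductase, had the smallest p value among lower estimates, with a log2 fold change of -0.28 (adjusted p = 0.545 in edgeR).

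Among the 10 receptor genes, 5 were tested. *Ptgfrn*, which codes for a negative regulator of the prostaglandin F receptor and not for a receptor, was the highest of this list per length. It had 333, 337, 311 and 331 normalized counts after vehicle and 482, 481, 467 and 449 after corticosterone. The values lay tightly within each group and far apart between them, from 328 ± 11.5 to 470 ± 15.4 (SD, n = 4). Its log2 fold change of 0.52 (standard error 0.080) had an unadjusted p value of 2.3e-05 and an adjusted one of 0.163 in edgeR, the smallest in the 5 lists. *Ptger3*, a receptor for prostaglandin E, had 36.3 ± 11.6 normalized counts after vehicle and 60.1 ± 11.3 after corticosterone without overlap, a log2 fold change of 0.73 (adjusted p = 0.468 in edgeR). *Tbxa2r*, the thromboxane receptor, had the smallest p value among lower estimates, with a log2 fold change of -0.45 (adjusted p = 0.729 in edgeR). It met the bound of the filter in 3 vehicle and 1 corticosterone libraries, and the value ranged from -1.24 without corticosterone replicate 5 to -0.12 without vehicle replicate 3. The receptors *Ptger2*, *Ptgdr*, *Ptgdr2*, *Ptgfr* and *Ptgir* were under the filter, with between 8 and 62 reads over all 8 libraries.

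Of the 27 phospholipase A2 and arachidonate genes, 15 were tested, 6 with higher and 9 with lower estimates, and 5 secreted or cytosolic forms had 0 reads in all libraries. *Pla2g7*, which degrades platelet-activating factor, was the most abundant per length, with 3222 ± 246 normalized counts after vehicle and 3496 ± 309 after corticosterone. An unadjusted p value under 0.05 was reached by 2 genes of the list, *Mgll* and *Dagla*, both with lower estimates, and neither passed the adjusted threshold. *Mgll*, which hydrolyses the endocannabinoid 2-arachidonoylglycerol, had 5125, 4468, 4691 and 4536 normalized counts after vehicle and 4288, 3620, 4183 and 4083 after corticosterone. The groups did not overlap, and the log2 fold change was -0.22 ± 0.074 (SE, adjusted p = 0.482 in edgeR). *Dagla*, which makes this lipid, had 3217 ± 525 and 2506 ± 392 normalized counts, with overlap, and a log2 fold change of -0.36 (adjusted p = 0.499 in edgeR). *Pla2g4e* had the smallest p value among higher estimates, with a log2 fold change of 0.41 (adjusted p = 0.546 in edgeR).

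Of the 15 lipoxygenase and leukotriene genes, 8 were tested and 0 reached an unadjusted p value under 0.05 in edgeR. *Ephx2*, the soluble epoxide hydrolase and the highest of them per length, had 415 ± 36.9 and 416 ± 25.6 normalized counts. The smallest p value among higher estimates was that of *Aloxe3* (log2 fold change 0.27), and among lower estimates that of *Ltc4s*, the leukotriene C synthase (log2 fold change -0.39). Leaving out corticosterone replicate 5 moved *Ltc4s* to -0.63, and leaving out replicate 7 moved it to -0.21.

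Of the 18 annexins and partners, 11 were tested, with higher estimates in 9 and lower in 2. *Anxa6*, the most abundant annexin per length in this tissue, had 2527 ± 90.2 and 2516 ± 34.5 normalized counts, and its log2 fold change was -0.0058. *S100a11*, which codes for an annexin-binding protein, had 38.1 ± 8.10 normalized counts after vehicle and 65.8 ± 24.7 after corticosterone, and the log2 fold change was 0.79 (adjusted p = 0.487 in edgeR). *Anxa2* had 101 ± 11.8 and 142 ± 32.9 normalized counts, and its log2 fold change was 0.49 (adjusted p = 0.499 in edgeR). Both overlapped between the groups. *Anxa11* had the smallest p value among lower estimates, with a log2 fold change of -0.24.

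**Figure D5:**
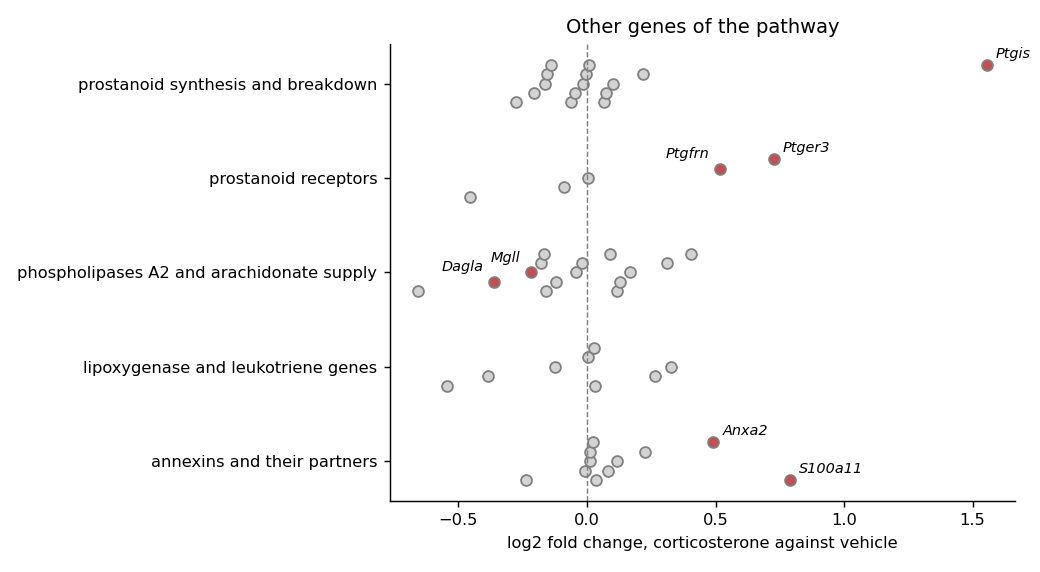
Log2 fold changes of corticosterone against vehicle (horizontal axis) for the 54 tested genes of the 5 pathway lists, 1 row of points per list with vertical offsets for legibility. The 7 red, named points had an unadjusted p value under 0.05 in edgeR, and none passed the adjusted threshold.

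The other marker lists were measured in the same libraries. The 8 endothelial markers, led by *Flt1*, summed to 2478 to 2633 normalized counts after vehicle and to 2119 to 2386 after corticosterone without overlap, with 2 lower at an unadjusted p value under 0.05. The 10 markers of dentate granule and pyramidal neurons, led by *Slc17a7*, summed to 47599 to 60180 and to 44177 to 54259, and 1 was lower at that level. Over all genes, 4.52% were lower at that level. No marker of either list was at 0 in any library.

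For each of the 9 genes, the 3 genes with the most similar values were sought by Pearson's r of log2 values over the 8 libraries after removal of the group means, among 12938 or 12939 genes with at least 50 normalized counts. With so many genes and 8 libraries, high values of r are reached by many genes, so these are given as a description. *Ptgds* was followed by *Lhfpl5* (r = 0.96), *Gfap* (r = 0.96) and *Eif2s3x* (r = 0.95). *Pla2g3* was followed by *Gm9923*, *Pmp22* (both r = 0.98) and *Mrpl9* (r = 0.97), and *Anxa1* by *Cpne2* (r = 0.97), *Pxylp1* and *Oscp1* (both r = 0.94). *Ptgs1* was nearest to *Dnaic1* (r = 0.99), *Tppp* and *Adam23* (both r = 0.95), and *Ptgs2* to *Slc26a4*, *Cep95* and *Golm1* (each r = 0.97). *Hpgd* was nearest to *Zfp52*, *Ppfibp1* (both r = 0.99) and the microglial gene *Gpr34* (r = 0.98). With the sum of the microglia markers, which include *Gpr34*, the r of *Hpgd* was 0.30. For *Hpgds* the nearest genes were *Shld1* (r = 0.94), *Lonrf3* and *Ighm* (both r = 0.93). For *Ptges* they included *Taf6* (r = 0.97) and *Ppcs* (r = 0.96), and for *Pla2g4a* they were *Pxmp2* (r = 0.97), *Rad9b* and *Mrpl24* (both r = 0.96). None of these lists shared a gene with another.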

How the data were processed

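Stranded paired-end RNA-seq libraries of ventral hippocampus were sequenced by the authors, aligned to mm10 with GSnap and counted per gene with HTSeq-count 0.6.0. The deposited values are raw counts, not normalized. The annotation release and the strand setting are not given in the sources used here. The 5 rows that name no gene were left out; they held 13.7% to 15.4% of the reads of a library. Symbols, positions and exon lengths came from GENCODE M21 (GRCm38), which held 50376 of the 50686 identifiers. Counts were normalized with TMM, filtered with filterByExpr and tested across all genes in edgeR 4.0.16 (R 4.3.3) by the quasi-likelihood test with Benjamini-Hochberg adjustment. An exact two-sided permutation test of single genes ran over the 70 assignments of log2 values (prior count 2). Alternatives used DESeq2 1.42.0, limma 3.58.1 and sva 3.50.0. Scripts were tested on simulated data.

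The genes and lists were chosen with earlier results of these data known. Named genes were the 9 genes, in each pathway list the gene highest per length and those with the smallest p value in either direction, and the 3 most similar genes. *Ptger3*, *Dagla*, *Anxa2*, *Plaa*, *Inpp5j*, *Otx2*, *Slc47a1*, the markers at 0 and genes under the filter were outside this rule. Some genes that the rule names are not reported here. Sequences came from RefSeq (GRCm38.p6).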

Additional observations from a re-analysis of the deposited data

Results flagged for a closer look

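Within vehicle and within corticosterone, 68 sets of 4 values were examined. They held the 9 genes, the pathway genes that the rule above names (not *Ptger3*, *Dagla* or *Anxa2*), the sums of the marker lists and 3 shares of reads. By Dixon's criterion a single library lay far from the remaining 3 in 6 sets, where chance gives about 1 in 20 sets, 3.4 here. *Hpgd* in corticosterone replicate 8 had 79.9 normalized counts against 62.9 to 65.2. The leptomeningeal fibroblast markers summed to 5770 in corticosterone replicate 6 against 3323 to 3678. The neuron markers summed to 54259 in corticosterone replicate 5 against 44177 to 45356. That library also had 86.3% of its reads on genes against 84.6% to 84.8%, and 1.48% of ambiguous reads against 1.25% to 1.28%. The ambiguous share was 1.4% in vehicle replicate 4 and 1.64% to 1.67% in the rest of its group.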

How the results depend on the processing

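The counts of called genes and the log2 fold changes of the 9 genes were recomputed in 14 further settings, and those of 17 named pathway genes likewise, an addition made after the data were seen. Levels per length, marker sums and similar genes were not recomputed. The log2 fold change of *Pla2g3* was positive in all 15 fits and lay between 0.97 and 1.32 with 1 mouse left out. It passed the adjusted threshold with DESeq2 (1.13), with no filter on low counts (1.13) and without corticosterone replicate 5. *Anxa1* was positive in all 14 fits that held it, between 1.31 and 1.73 with 1 mouse left out, and passed with no filter (1.5) and without corticosterone replicate 5. It was not tested at 10 counts or more in every library. *Ptgds* stayed positive in 15 fits and passed in none. Signs near 0 turned: *Ptgs2* was -0.039 with 1 surrogate variable and between -0.014 and 0.17 with 1 mouse left out, *Ptges* was 0.038 with 1 surrogate variable, *Hpgds* lay between -0.015 and 0.13 and *Hpgd* between -0.18 and 0.0010 with 1 mouse left out. Among the pathway genes, signs turned in *Fam213b* (-0.0083 with limma-voom, -0.14 to 0.079 with 1 mouse left out), *Ephx2* (-0.038 to 0.055) and *Anxa6* (-0.024 to 0.012), and with 1 surrogate variable in *Tbxa2r* (0.17) and *Anxa11* (0.030). That setting also moved *S100a11* to 0.42, *Anxa2* to 0.24, *Dagla* to -0.18, *Pla2g4e* to 0.095, *Ltc4s* to -0.11, *Pla2g7* to 0.0052 and *Ptgds* to 0.74. With 1 mouse left out, *Pla2g4a* lay between 0.013 and 0.32, *Ptges* between -0.28 and -0.0040, *Anxa11* between -0.38 and -0.11, *Pla2g7* between 0.064 and 0.17 and *Aloxe3* between 0.17 and 0.37. The cause was not tested.

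The number of the 9 genes called was 0, but 1 with DESeq2, 2 with no filter, and 0 to 2 with 1 mouse left out. Of the other pathway genes 0 were called, 1 with DESeq2, 1 with no filter, and 0 to 6 with 1 mouse left out, the 6 without corticosterone replicate 5 (*Anxa2*, *Dagla*, *Mgll*, *Plaa*, *Ptgfrn* and *S100a11*). Over all genes 1 was called, 63 with DESeq2, 79 with no filter, 0 with at least 10 counts in every library, 2 with 1 surrogate variable, and 0 to 1651 with 1 mouse left out, the largest without corticosterone replicate 5 and 19 without vehicle replicate 1. No paired analysis was possible because the groups share no replicate number. Genes with few reads are limited by depth.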

Other observations

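*Anxa8*, an annexin under the filter on low counts, was singled out after its values were seen. It had 1, 2, 2 and 3 reads in vehicle replicates 1 to 4 and 15, 8, 16 and 6 in corticosterone replicates 5 to 8, which is 8 reads against 45 in all and without overlap. With no filter its unadjusted p value was 0.000155 and its adjusted p value 0.0519 in edgeR, and with DESeq2 the adjusted p value was 0.0996. *Ptgfr* and *Pla2g2f* were singled out in the same way. *Ptgfr*, the prostaglandin F receptor, had 19 reads over the vehicle mice and 43 over the corticosterone mice, with an unadjusted p value of 0.0252 and an adjusted one of 0.474 in the same edgeR fit. *Pla2g2f*, a secreted phospholipase A2, had 35, 7, 27 and 7 reads after vehicle and 8, 8, 12 and 6 after corticosterone, with an unadjusted p value of 0.0168 and an adjusted one of 0.432 in that fit. Vehicle replicates 1 and 3 were above all other mice, and the other 6 mice overlapped.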
